A study of Rattus norvegicus with 20 samples.

Results

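The cytosolic ribosomal proteins were taken as every gene whose array row carried 1 gene symbol beginning with Rpl or Rps and a digit, or the symbol Rplp0, Rplp1, Rplp2 or Rpsa. This gave 47 genes of the 14557 named on the array, 34 of the large subunit and 13 of the small subunit, from 74 rows. Where a gene had several rows, the row with the highest mean over the 20 arrays stood for it. S6 kinases, 1 binding protein, 95 copies whose symbol ends in the letter l and a number, 38 symbols marked as pseudogenes and 50 rows with several symbols were set apart.

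RNA of whole blood was measured in 20 male rats, 1 Affymetrix Rat Gene 2.1 ST array per rat, with 5 rats in each of 4 groups. The lean control rats ate a standard chow, whereas the obese Zucker diabetic fatty (ZDF) rats, a strain that becomes obese and diabetic, were given a stock diet for 6 weeks, so that genotype and diet cannot be told apart in any comparison with lean rats. The 5 untreated ZDF rats were set beside 5 ZDF rats given rosiglitazone, an agonist of the nuclear receptor PPARγ used against insulin resistance, and 5 given resveratrol, a plant polyphenol, at doses the labels do not state. The labels name the strain as Zucker and number the rats of each group 1 to 5 as biological replicates. Because whole blood was lysed, fewer cells of a type and less RNA per cell cannot be told apart.

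A cytosolic ribosome joins a small subunit, which reads the messenger RNA, to a large subunit, which forms the peptide bonds, and each subunit is a core of ribosomal RNA covered by proteins that are mostly present in 1 copy. The messages of these proteins are among the most abundant in a cell, and in mammals most of them begin with a C followed by a run of pyrimidines, the terminal oligopyrimidine tract, through which mTOR complex 1 sets their translation. In blood, circulating lymphocytes and young red cells are known as cells with much ribosomal protein message, and mutations of several ribosomal protein genes cause Diamond-Blackfan anaemia in humans.

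The start of these messages was read from RefSeq promoters of rat assembly GRCr8, which hold an entry for 41 of the 47 genes. Below are the 30 bases from 10 before the annotated start to 20 from it, shown because the pyrimidine tract is the best known sequence feature of the family. The capitals mark a run of C and T at least 5 bases long that begins with C within 3 bases of the start.
Rps3a: gtacttccgCCCTTTTggctctcagagcgg
Rpl35a: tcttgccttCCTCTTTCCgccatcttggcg
Rpl37a: cccgttgcgtCTCTTCCTCTTCgggcttgg
Rpl19: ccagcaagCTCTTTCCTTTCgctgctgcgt
Rpl10: gtgggagcgtCTCTTTTCCTCTggcgcggt
Rplp0: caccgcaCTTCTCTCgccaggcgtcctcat
Rps6: ctcctaggcggtcggctgtgtcaagatgaa
Rpl41: ctcggaagtgacgacaccaagcacgccatt
Rps3a, Rpl35a, Rpl37a and Rpl19 are genes whose array values passed the test in at least 1 comparison and whose start holds such a run, Rpl10 and Rplp0 hold a run without passing any, and Rps6 and Rpl41 hold none at the annotated start. The gene identifier of the Rpl37a row had no chromosome in the RefSeq genes. Its row and the start shown may therefore not belong to the same gene. The windows lie at chr2:173827023-173827052 (minus strand), chr11:81235002-81235031 (minus strand), chr9:81748081-81748110 (plus strand), chr10:83519054-83519083 (plus strand), chrX:157205840-157205869 (plus strand), chr12:46718371-46718400 (minus strand), chr5:106420521-106420550 (minus strand) and chr7:1563478-1563507 (minus strand), and each spans the end of the promoter and the start of the first exon.

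A run of this kind stood at the start of 19 of the 41 genes (46.3%), of 8 of 71 numbered copies with a promoter in the table (11.3%) and of 3036 of 27457 promoters of all genes, the first listed for each gene (11.1%). Among the genes that passed the test in at least 1 comparison, 6 of 11 with a promoter held it, and among the other tested genes 10 of 23. The motif CTTTC, which can lie inside such a run, was found on either strand within 50 bases of the start in 25 of the 41 (61.0%) and in 23.5% of all promoters. It was found in 3 of the 11 genes that passed (27.3%) and in 17 of the other 23 (73.9%), a split given with no test. AAGATGG, which holds a start codon, was found in 7 (17.1%) against 3.55% of all promoters, and CCGGAAG in 4 (9.76%) against 4.83%. These are matches of letters at an annotated start, and a start placed a few bases off would hide a run.

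Of the 47 genes, 39 lay above the filter on level, a mean over the 20 arrays of at least 2.64 log2 intensity, which is the median of all rows on the array. The other 8 (Rpl5, Rpl13, Rpl15, Rpl26, Rpl28, Rpl3l, Rps4y2 and Rps9) had means of at most 2.33, although several of them are core proteins of the ribosome, and in a fit of all genes with no filter none of them passed the test in any comparison. The kept genes ran from a mean of 3.08 for Rpl27a to 11.6 for Rps29, a small subunit protein, with 18 of the 39 above 8 and 4 (Rpl27a, Rps6, Rps3a and Rpl37a) below 4. Since a row's brightness depends on its probes, these means give no order of the genes. The genes that lay highest were Rps29, Rpl21 (10.3) and Rpl4 (10.1). Rplp1, Rps19 and Rps27a, the last of which is made as a fusion with ubiquitin, had no row with 1 symbol and are not analysed here.

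Among the arrays, resveratrol replicate 1 and rosiglitazone replicate 5 stood apart, with a median correlation of 0.922 and 0.928 with the other arrays against 0.947 to 0.963 for the rest. Lean replicate 1 carried a signal of skeletal muscle, with Acta1, muscle actin, at 7.39 and Myh4, a fast muscle myosin, at 7.22 against at most 5.02 and 2.97 on the other 19 arrays. Of the listed blood cell markers with a row, 18 of 18 red cell, 17 of 17 T cell, 10 of 10 B cell and 11 of 11 platelet genes lay above the filter. For monocytes it was 11 of 12, for NK and cytotoxic cells 10 of 12 and for neutrophils 14 of 19. So did 6 of 11 skeletal muscle genes and 8499 of the 14557 named genes, so that passing the filter does not by itself bear out the tissue label. The array medians lay between 2.54 and 2.66 in lean and 2.64 and 2.70 in ZDF rats. They lay between 2.64 and 2.78 with rosiglitazone and 2.65 and 2.72 with resveratrol. Centring each array on its median moved the median difference of all genes from -0.09 to -0.18 for rosiglitazone against lean, and from -0.08 to -0.15 for ZDF against lean. Quantile normalization moved both to -0.03 instead. The median over the 39 ribosomal protein genes for ZDF, rosiglitazone and resveratrol against lean was -0.28, -0.21 and -0.27 after quantile normalization. With centring it was -0.37, -0.36 and -0.41.

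Taken as a group, ribosomal protein messages had a lower level in the blood of the obese rats than in that of lean rats, with median differences of -0.30 in untreated, -0.27 in rosiglitazone and -0.33 in resveratrol treated rats on the log2 scale, and no gene passed the test between the obese groups. For each rat, the median over the 39 genes of the difference from the lean mean was 0.04, 0.04, -0.18, 0.03 and 0.05 in lean replicates 1 to 5 and -0.45, -0.23, -0.23, -0.22 and -0.30 in the ZDF rats. It was -0.24, -0.05, -0.13, -0.28 and -0.61 with rosiglitazone and -0.38, -0.26, -0.31, -0.33 and -0.30 with resveratrol. All ZDF and resveratrol rats were lower than the lowest lean rat, whereas 2 rosiglitazone rats (replicates 2 and 3) lay above lean replicate 3, the lowest lean rat, and rosiglitazone replicate 5 lay lowest of all 20.

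Over all 8499 genes tested, the same median stayed between -0.07 and 0.09 in lean rats, -0.11 to -0.05 in ZDF rats, -0.19 to -0.03 with rosiglitazone and -0.15 to -0.05 with resveratrol. In the ZDF rats the median over the 28 large subunit genes was -0.44 to -0.23 and over the 11 small subunit genes -0.47 to -0.16, and the difference between the subunits was not tested.

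**Figure D1:**
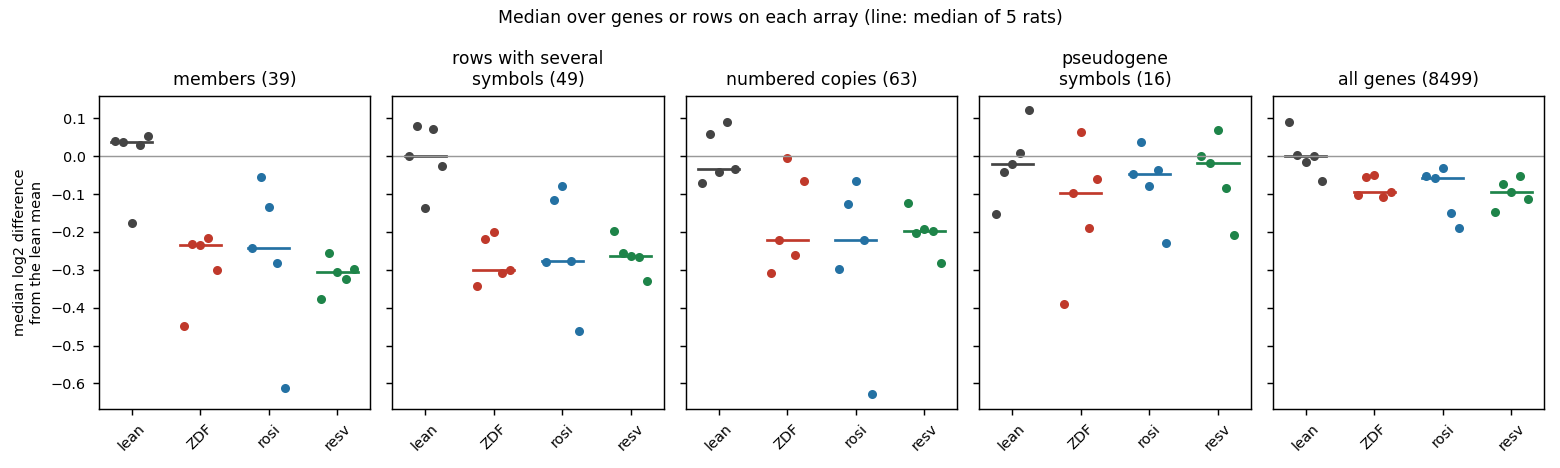
Each point is 1 rat and gives the median, over the genes or rows of a class, of the log2 difference from the mean of the lean rats; horizontal bars give the median of the 5 rats, with rosi for rosiglitazone and resv for resveratrol. The 5 ZDF rats lie between -0.45 and -0.22 for the ribosomal protein genes, against -0.11 to -0.05 for all genes.

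Which genes were lower in untreated ZDF than in lean rats was asked with limma on the 10 arrays of these groups, with p values adjusted over the 8499 genes and a threshold of 0.05. Of the 39 genes 34 had a lower mean in ZDF rats, with a median difference of -0.30, against 60.9% of all genes and a median of -0.08. Only Rps3a and Rpl7 passed the test, 2 of 39 (5.13%) against a background of 2.15% of all genes called lower, and none was called higher, against 0.8% of all genes. An unadjusted p under 0.05 was reached by 23 of the 39 and by 2045 of the 8499. In 13 of the 39 genes (33.3%) no ZDF rat reached the lowest lean rat, a separation that 5.01% of all genes showed.

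Rps3a, a protein of the small subunit near the exit of the messenger RNA channel, differed the most. It was measured at 4.54, 4.34, 4.01, 4.64 and 3.44 log2 intensity in lean replicates 1 to 5 and at 2.94, 2.89, 3.39, 3.22 and 2.65 in the ZDF rats. All 5 lean rats lay above all 5 ZDF rats, although lean replicate 5 lay close to the highest ZDF rat. The group means were 4.19 ± 0.49 (SD, n = 5) and 3.02 ± 0.29, a difference of -1.17 ± 0.21 (SE), or 2.26-fold, with an adjusted p of 0.0134 from limma. With rosiglitazone its values were 3.08, 3.69, 3.44, 2.99 and 2.44 and with resveratrol 3.33, 2.70, 3.41, 3.57 and 3.33. Both treated groups overlapped with lean replicate 5 and lay below the other 4 lean rats. The row is dim, so that several ZDF values sit close to the filter level.

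Rpl7, a large subunit protein bound near the 5S ribosomal RNA, was at 7.42, 7.44, 7.07, 7.31 and 7.34 in lean and at 6.35, 7.00, 6.76, 6.52 and 6.69 in ZDF rats. The ZDF rats all lay below the lean rats, and the means were 7.32 ± 0.15 and 6.66 ± 0.25 (SD, n = 5), a difference of -0.66 ± 0.15 (SE) with a limma adjusted p of 0.0327. In the rosiglitazone rats it ran from 6.24 to 7.52, with replicate 2 above every lean rat. The Rpl7 call was lost when lean replicate 1, 2 or 4 or ZDF replicate 1, 4 or 5 was left out, with adjusted p up to 0.084, whereas Rps3a passed in all 10 such fits.

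The genes next in order were Rps15a, a small subunit protein (-0.55, limma adjusted p = 0.0567), Rpl19, which forms a bridge between the subunits (-0.52, adjusted p = 0.0591), and Rpl11, which with Rpl5 and the 5S ribosomal RNA can bind and hold back Mdm2 (-0.41, adjusted p = 0.0619). In these 3 genes too no ZDF rat reached the lowest lean rat, but none passed. Rplp0 and Rplp2, which build the stalk that recruits elongation factors, had differences of -0.39 ± 0.13 (SE) and -0.33 ± 0.12 (SE) without passing. The 5 genes with a higher mean in ZDF rats were Rps6, Rps16, Rpl18, Rpl41 and Rps29, by 0.05 to 0.22. The number that passed was 1 to 4 when a rat was left out (4 without lean replicate 5, and 1 without lean replicate 1, 2 or 4 or ZDF replicate 1, 4 or 5). It was 13 of 39 with a prior that follows the level, where 6.02% of all genes were called in either direction against 2.95% without it.

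**Figure D2:**
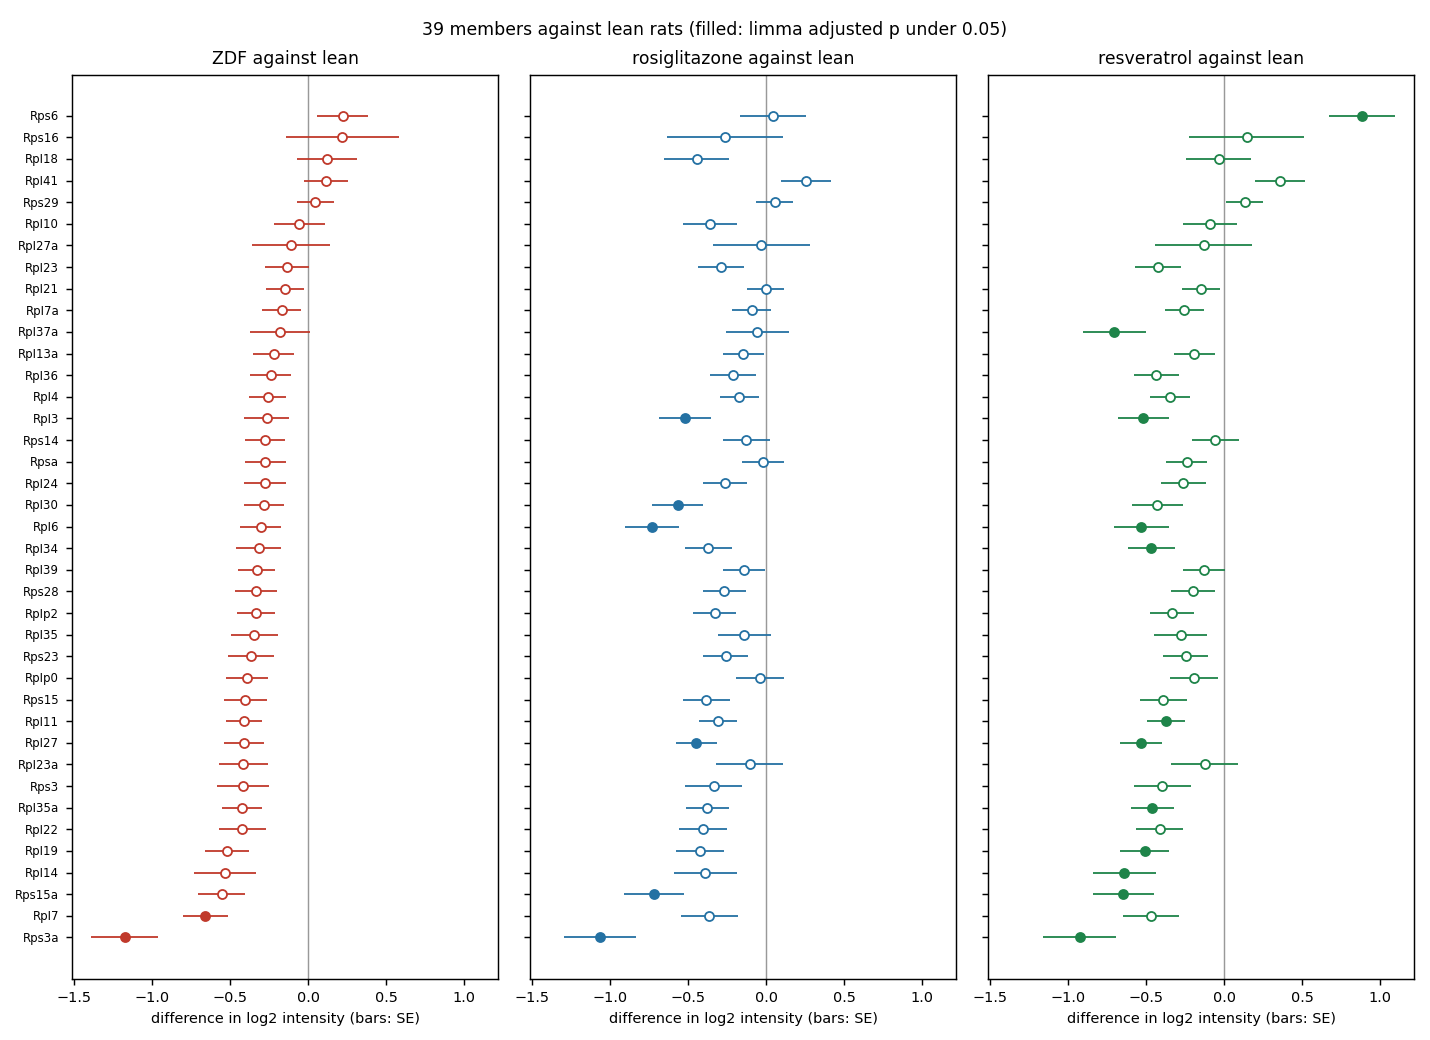
For each of the 39 genes, the points give the difference in log2 intensity from the lean rats and the bars its standard error, from the limma fits, with filled points for an adjusted p under 0.05. Rps3a and Rpl7 are filled for ZDF, 6 genes for rosiglitazone and 12 for resveratrol, of which Rps6 alone lies to the right of 0.

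The comparisons of the treated rats with lean rats used all 20 arrays with 4 group means, so that they have more residual degrees of freedom than the comparison above, and all comparisons with lean rats share the same 5 controls. Their counts of called genes are not on the same footing as those for ZDF against lean, which fell when all 20 arrays were fitted. With rosiglitazone 36 of the 39 genes had a lower mean than in lean rats, with a median difference of -0.27 against -0.09 over all genes. The 6 genes called lower were Rps3a, Rpl6, Rps15a, Rpl30, Rpl27 and Rpl3. That is 15.4% of the 39, close to the background of 14.5% of all genes called lower, and none was called higher against a background of 4.17%. Every rosiglitazone rat lay below every lean rat in 5 of the 39 genes (12.8%), against 9.62% of all genes.

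Rpl6, a large subunit protein, was at 7.98, 7.51, 7.59, 7.72 and 7.51 in lean rats and at 7.40, 7.28, 6.89, 6.51 and 6.57 with rosiglitazone. In the ZDF rats it was at 7.37, 7.31, 7.25, 7.41 and 7.45 and with resveratrol at 6.76, 7.48, 7.01, 7.20 and 7.20. All obese groups lay below the lean rats, the lowest of which was at 7.51, and rosiglitazone replicates 4 and 5 were lowest. The difference from lean rats was -0.73 ± 0.17 (SE) with rosiglitazone (limma adjusted p = 0.00704), -0.53 ± 0.17 (SE) with resveratrol (adjusted p = 0.045) and -0.30 ± 0.13 (SE) in untreated rats (adjusted p = 0.178).

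Rps15a was at 7.99, 7.63, 7.44, 7.98 and 7.59 in lean rats, at 7.00, 7.14, 7.37, 7.36 and 6.99 in ZDF rats, at 7.30, 7.29, 7.34, 7.05 and 6.06 with rosiglitazone and at 7.11, 7.11, 6.94, 7.11 and 7.13 with resveratrol. No rat of the obese groups reached the lowest lean value, and rosiglitazone replicate 5 was far below the other rosiglitazone rats. The differences from lean rats were -0.72 ± 0.19 (SE) with rosiglitazone (limma adjusted p = 0.0146) and -0.64 ± 0.19 (SE) with resveratrol (adjusted p = 0.033). Without rosiglitazone replicate 5 the first was -0.48 and still passed.

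Rpl30, a large subunit protein that in yeast also binds its own transcript, was at 9.67, 9.61, 9.22, 9.57 and 9.57 in lean rats and at 9.28, 9.12, 9.20, 8.94 and 8.28 with rosiglitazone. Lean replicate 3 lay inside the rosiglitazone range, and rosiglitazone replicate 5 well below it. The difference was -0.57 ± 0.16 (SE) (limma adjusted p = 0.0196), and it did not pass without lean replicate 1 or without rosiglitazone replicate 5. Rpl27, a large subunit protein, had means of 7.76 ± 0.14 in lean and 7.32 ± 0.20 with rosiglitazone (SD, n = 5) and did not overlap between them (-0.45 ± 0.13 (SE), adjusted p = 0.0233). Rpl3, which reaches towards the peptidyl transferase centre, ran from 7.33 to 8.07 with rosiglitazone and from 8.04 to 8.48 in lean rats, which overlap narrowly (-0.52 ± 0.16 (SE), adjusted p = 0.0305). The count of 6 was 3 without lean replicate 1 or without rosiglitazone replicate 5, and 3 when only the arrays of these groups entered the fit.

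With resveratrol 35 of the 39 genes had a lower mean than in lean rats, with a median difference of -0.33 against -0.09 over all genes. The genes called lower were 11 of 39 (28.2%), against 10.4% of all genes, and 1 was called higher, against 2.73%. Every resveratrol rat lay below every lean rat in 10 of the 39 genes (25.6%), a separation seen in 8.47% of all genes. The 11 were Rpl3, Rpl6, Rpl11, Rpl14, Rpl19, Rpl27, Rpl34, Rpl35a and Rpl37a of the large subunit and Rps3a and Rps15a of the small subunit. The number rests on single rats, since it was 12 in both directions with all arrays and 1 to 6 without lean replicate 1, 2, 4 or 5 or resveratrol replicate 1, 3 or 5, the lowest without lean replicate 4, as the calls over all genes fell as well.

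Rpl27 was at 7.81, 7.73, 7.54, 7.91 and 7.83 in lean rats and at 7.13, 7.15, 7.24, 7.41 and 7.24 with resveratrol. It was at 7.22, 7.41, 7.31, 7.55 and 7.27 in ZDF rats and at 7.41, 7.45, 7.48, 7.23 and 7.01 with rosiglitazone. The resveratrol rats all lay below the lean rats, by -0.53 ± 0.13 (SE) (limma adjusted p = 0.0174), and the ZDF rats overlapped with the lean rats only at ZDF replicate 4. Rpl35a, whose human counterpart is among the genes mutated in Diamond-Blackfan anaemia, was at 8.82, 8.98, 8.77, 9.08 and 9.08 in lean rats and at 8.55, 8.43, 8.56, 8.47 and 8.43 with resveratrol. Here the resveratrol rats lay close together and below every lean rat (-0.46 ± 0.14 (SE), adjusted p = 0.0337). The Rpl35a call was lost in 8 of the 10 fits that left out a rat.

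Rpl37a, a zinc binding protein of the large subunit, differed from the others in that only the resveratrol rats were low. It was at 2.89, 3.39, 2.81, 2.86 and 2.67 with resveratrol, at 3.52, 3.57, 3.76, 4.05 and 3.25 in lean rats, at 3.02, 4.06, 3.41, 3.44 and 3.33 in ZDF rats and at 4.22, 3.29, 3.38, 3.53 and 3.45 with rosiglitazone. Resveratrol replicate 2 overlapped with the other groups, and the remaining 4 lay below all other rats. The difference from lean rats was -0.70 ± 0.20 (SE) (limma adjusted p = 0.0285), while those from ZDF (-0.53 ± 0.20 (SE), adjusted p = 0.401) and from rosiglitazone rats did not pass. The row is dim, and the call was lost without lean replicate 1 or 4, without resveratrol replicate 1, 3 or 5, and after quantile normalization.

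Rps6, the small subunit protein that S6 kinases phosphorylate downstream of mTOR complex 1, was the gene that went the other way. It was at 2.69, 2.79, 3.03, 3.12 and 3.16 in lean rats, at 3.56, 2.78, 3.04, 3.15 and 3.37 in ZDF rats, at 2.68, 3.30, 3.44, 3.15 and 2.43 with rosiglitazone and at 4.08, 3.68, 4.46, 3.68 and 3.30 with resveratrol. All 5 resveratrol rats lay above all lean rats but overlapped with ZDF and rosiglitazone rats. The difference from lean rats was 0.88 ± 0.21 (SE) (limma adjusted p = 0.0148), which passed in each of 10 fits that left out 1 rat but not without the 3 arrays described above as standing apart or carrying a muscle signal. This row too is dim, with a mean of 3.24 over the 20 arrays, and its messenger RNA level says nothing of the phosphorylated protein.

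The other genes called lower with resveratrol differed by smaller amounts or varied more. Rpl14, a large subunit protein, was 5.70 to 6.37 against 6.28 to 6.98 in lean rats (-0.64 ± 0.20 (SE), limma adjusted p = 0.0389), where lean replicate 3 overlapped. Rpl19 was 6.89 to 7.35 against 7.44 to 7.91 (-0.51 ± 0.15 (SE), adjusted p = 0.0345), with no overlap. Rpl11 was lower by a small but even amount, with values of 6.97, 7.15, 7.21, 7.25 and 6.97 against 7.50, 7.52, 7.37, 7.48 and 7.51 in lean rats (-0.37 ± 0.12 (SE), adjusted p = 0.0442). Rpl34, Rpl3 and Rpl6 had adjusted p of 0.0417, 0.0407 and 0.045. Each of Rpl3, Rpl6, Rpl11, Rpl14, Rpl34 and Rpl35a lost its call in at least 7 of the 10 fits that left out a rat, and Rpl19, Rps15a and Rpl37a lost theirs in 5. Without the 3 arrays together, the calls of Rps15a and Rpl35a alone were kept, where 2.88% of all genes were called in either direction.

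**Figure D3:**
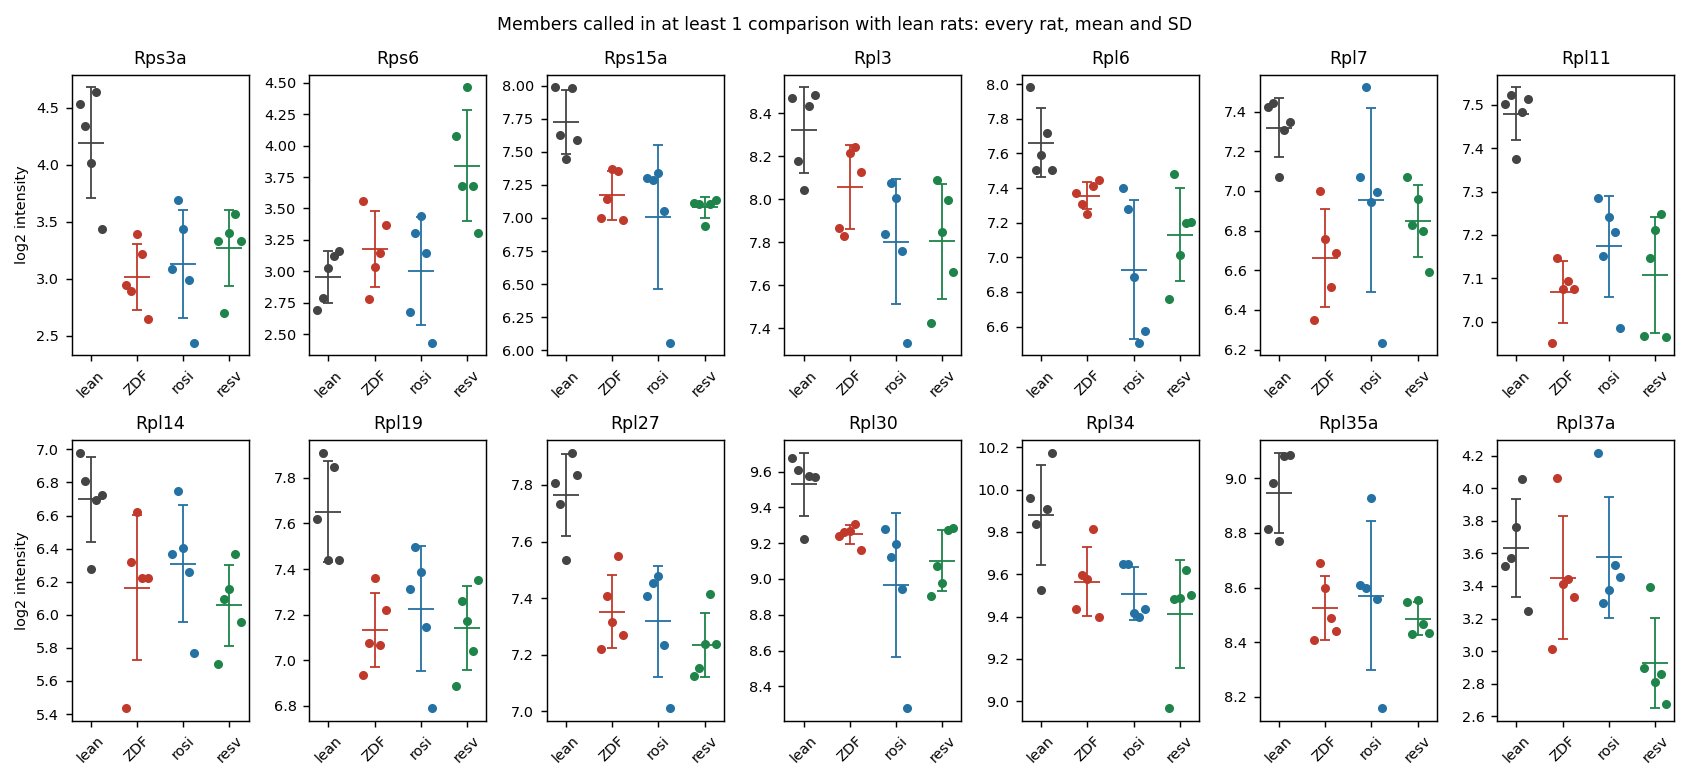
Log2 intensity of the 14 genes called in at least 1 comparison with lean rats, with 1 point per rat and the mean and SD of each group of 5; every panel has its own axis, which does not start at 0. Rps6 is the panel in which the resveratrol rats (3.30 to 4.46) lie above the lean rats (2.69 to 3.16), and Rps3a shows the largest distance between lean and ZDF rats.

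Whether either drug moved these genes away from the untreated ZDF state was asked in 3 further comparisons, and no gene of the 39 passed any of them. For rosiglitazone against ZDF, 0 of 39 were called, against 0.118% of all genes called higher and 0.0471% called lower. The median difference was 0.07, against -0.03 over all genes, and 3 of the 39 had an unadjusted p under 0.05 against 1032 of the 8499. These were Rpl18 (-0.57 ± 0.21 (SE), limma adjusted p = 0.29), Rpl6 (-0.43 ± 0.17 (SE), adjusted p = 0.324) and Rplp0 (0.35 ± 0.16 (SE), adjusted p = 0.363). The Rplp0 values were 6.95, 7.07, 7.27, 7.05 and 6.56 with rosiglitazone, 6.52, 6.80, 6.71, 6.30 and 6.79 in ZDF and 7.05, 7.07, 6.97, 7.09 and 6.90 in lean rats. All but replicate 5 of the rosiglitazone rats thus lay above the ZDF rats, within or above the lean range.

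For resveratrol against ZDF, 0 of 39 were called by limma, as were 0% of all genes in either direction, and 2 of 39 had an unadjusted p under 0.05 against 873 of the 8499. The smallest p values belonged to Rps6 (0.66 ± 0.21 (SE), adjusted p = 0.37), Rpl37a and Rpl23 (-0.29 ± 0.14 (SE), adjusted p = 0.501), a large subunit protein that can also bind Mdm2. For rosiglitazone against resveratrol, 0 of 39 were called, against 0.0235% of all genes in each direction. Again Rps6 (-0.84 ± 0.21 (SE), adjusted p = 0.158) and Rpl37a (0.65 ± 0.20 (SE), adjusted p = 0.343) led, followed by Rpl18 (-0.41 ± 0.21 (SE), adjusted p = 0.567). In simulated data of this design, 25.4% of genes changed by 0.5 on the log2 scale were called for rosiglitazone against ZDF, and 83.6% of those changed by 1. The changed genes were drawn from all 8499, with noise independent between genes. The 39 genes had a median SD of 0.16 in ZDF and 0.27 in rosiglitazone rats, against 0.26 and 0.31 over all genes. The simulated shares are therefore not those of the 39.

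Over the 4 groups at once, the moderated F test of limma called 5 of the 39 genes (12.8%), against 11.4% of all genes. These were Rps3a (adjusted p = 0.00894), Rps6 (0.0226), Rpl6 (0.0323), Rpl27 (0.035) and Rps15a (0.0443). The number was 1 to 3 without lean replicate 1, 2 or 4, rosiglitazone replicate 4 or resveratrol replicate 3. The genes with the largest spread over the 20 rats, Rps16 (SD 0.67), Rps3a (0.60) and Rpl27a (0.53), include a pair, Rps16 and Rpl27a, that no comparison called, whereas Rps29 had the smallest SD, 0.09.

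Several members known for roles beyond the core of the ribosome, or used as reference genes, were not called in any comparison. Rps3, which lies at the messenger RNA entry and also acts in DNA repair, was at 6.75, 6.65, 6.02, 6.87 and 6.81 in lean and 6.15, 6.16, 6.05, 6.49 and 6.15 in ZDF rats, with overlapping ranges because of lean replicate 3. Rps14, the platform protein whose human gene is lost in the 5q- syndrome, had means of 7.99 ± 0.12 in lean, 7.71 ± 0.15 in ZDF, 7.86 ± 0.31 with rosiglitazone and 7.93 ± 0.17 with resveratrol (SD, n = 5). Rpsa, also known as the laminin receptor precursor, had means of 9.40 ± 0.18, 9.13 ± 0.10, 9.38 ± 0.19 and 9.16 ± 0.09 in the same order. A dimmer row of Rpsa, with a mean of 7.22 over the 20 arrays, did not stand for the gene. It differed from lean rats by -0.69 in ZDF, -0.15 in rosiglitazone and -0.76 in resveratrol rats. Rpl10, which joins the large subunit late in its assembly, had means of 4.16 ± 0.03, 4.10 ± 0.37, 3.80 ± 0.36 and 4.07 ± 0.09. In all of these the ZDF mean was below the lean mean. For Rpl10 that difference was -0.06, less than the SD of the ZDF rats.

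Rpl41, the smallest ribosomal protein, had its lowest mean in lean rats. Its values were 9.43, 9.68, 9.63, 9.27 and 9.26 in lean, 9.64, 9.44, 9.35, 9.62 and 9.81 in ZDF, 9.50, 9.60, 9.93, 9.43 and 10.10 in rosiglitazone and 9.77, 10.21, 9.78, 9.57 and 9.74 in resveratrol rats. The groups overlap, and the largest difference, 0.36 ± 0.16 (SE) for resveratrol against lean, did not pass (limma adjusted p = 0.127). Its 3 rows gave 0.12, 0.14 and 0.14 for ZDF minus lean.

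Of the 13 genes with several rows, 12 had more than 1 row above the filter, and the rows did not always give the same direction. For ZDF minus lean all rows were below 0 in 7 genes and above 0 in 1, and they differed in sign in 4. The 6 rows of Rpl39, a protein of the exit tunnel, gave -0.63 to -0.33, and the 3 rows of Rpl35a gave -0.50 to -0.37. In 3 genes, Rpl18, Rpl30 and Rpl39, some rows held identical values, so that their rows are not all separate measurements. The brightest row of Rpl18 gave 0.12 while the other 3, which hold identical values, gave -0.41. Rps16 gave 0.22 in its brighter and -0.83 in its dimmer row. The value of a single row, such as that of Rpl18 against ZDF above, therefore depends on the row, and near-identical copies elsewhere in the genome can share probes with any of them.

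**Figure D4:**
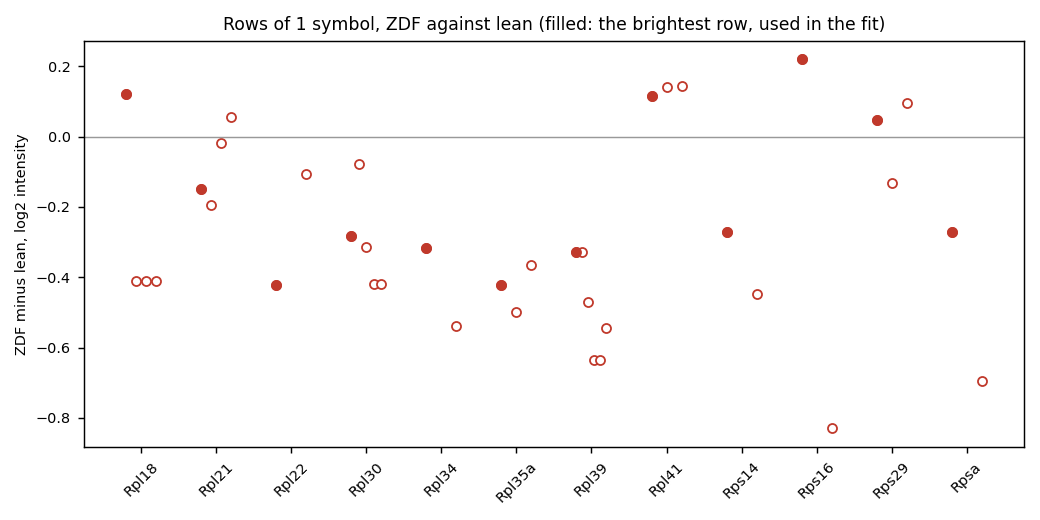
ZDF minus lean difference of group means (log2 intensity) for every row above the filter of the 12 genes with more than 1 such row, with the brightest row, which entered the fit, filled. Rpl18, Rpl21, Rps16 and Rps29 have rows on both sides of 0, and the rows of Rpl39 all lie between -0.63 and -0.33.

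The rows set apart covered further sequence of the family. The 49 kept rows with several symbols, among which are rows shared by ribosomal protein genes and their copies, were fitted together with the 8499 genes in an alternative added after the data were seen. They had a median of -0.25 for ZDF against lean with 46 of 49 below 0, and 3 were called lower against a background of 2.25% of all rows in that fit. For rosiglitazone 11 of 49 were called lower against 14.6%, and for resveratrol 9 of 49 against 10.6%, with medians of -0.25 and -0.24. None was called higher in these comparisons. The called shares were 6.12% in ZDF, 22.4% with rosiglitazone and 18.4% with resveratrol.

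The 63 kept numbered copies, many of which arose from reverse transcribed messages, had a median of -0.12 for ZDF against lean, -0.26 for rosiglitazone and -0.20 for resveratrol. Of these 3 were called lower and 1 higher in ZDF, 15 lower and 1 higher with rosiglitazone and 8 lower and 4 higher with resveratrol. The shares called lower were 4.76%, 23.8% and 12.7%, against 2.15%, 14.5% and 10.4% of all genes. Those called higher were 1.59%, 1.59% and 6.35%, against 0.8%, 4.17% and 2.73% of all genes. Rps8l1 fell by 1.17 ± 0.18 (SE) in ZDF rats (limma adjusted p = 0.00696), and Rpl37al2 rose by 1.22 ± 0.22 (adjusted p = 0.0134). The Rpl37al2 row had a mean of 2.11 in lean and 3.33 in ZDF rats. With its lean mean under the filter of 2.64, it was tested only because of its level in the obese groups. The 16 kept pseudogene symbols had medians between -0.06 and -0.01 in these comparisons. Of these, 1, 2 and 1 were called lower (6.25%, 12.5% and 6.25%), against 2.15%, 14.5% and 10.4% of all genes. Called higher were 1, 0 and 2 (6.25%, 0% and 12.5%), against 0.8%, 4.17% and 2.73%. Rps23-ps11 was called lower in all 3 groups, with differences of -1.05, -0.88 and -1.35 for ZDF, rosiglitazone and resveratrol. Rpl7-ps3 was called lower with rosiglitazone and Rpl6-ps6 higher with resveratrol. Rps10-ps21 was called higher in ZDF and resveratrol rats. Its lean mean of 2.22 lay under the filter, so that it was tested only because of its level in the obese groups. Which gene gave the signal of such a row cannot be told from the array.

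Genes that work beside the ribosomal proteins were taken from lists. Rack1, a protein of the small subunit head, was the only other ribosome-bound protein kept, and its difference for ZDF against lean was -0.35 ± 0.12 (SE) without passing (limma adjusted p = 0.107). Of 8 translation factors and related genes whose messages carry the pyrimidine tract, 1 was called lower in ZDF rats, 3 with rosiglitazone and 2 with resveratrol, where the background of all genes called lower was 2.15%, 14.5% and 10.4%. Hnrnpa1, an RNA binding protein, was lower in all 3, by -0.71 ± 0.16, -0.76 ± 0.17 and -1.16 ± 0.17 (SE), and Eif4b, a helper of the initiation helicase, with both drugs (-0.61 ± 0.21 and -0.76 ± 0.21). The elongation factors Eef1a1 and Eef2 were not called, with differences of -0.07 and -0.28 for ZDF against lean.

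Of 28 kept ribosome biogenesis factors, 1 was called lower in ZDF rats, 9 with rosiglitazone and 9 with resveratrol, and none higher, with medians of -0.25, -0.46 and -0.46. These are 3.57%, 32.1% and 32.1% of the list, against 2.15%, 14.5% and 10.4% of all genes called lower. Tsr1, which acts in late small subunit assembly, was lower in all of them (-0.49 ± 0.12, -0.74 ± 0.16 and -0.75 ± 0.16). Ncl, nucleolin, and Gnl3, nucleostemin, were lower with both drugs. Of 9 RNA polymerase I genes, 2, 3 and 5 were called lower (22.2%, 33.3% and 55.6%, beside the same background), with Rrn3, the initiation factor of that polymerase, at -0.68 ± 0.16, -0.86 ± 0.19 and -0.78 ± 0.19, and Taf1d at -0.65 ± 0.15, -0.82 ± 0.23 and -0.78 ± 0.23. Of 14 genes of mTOR complex 1 and its ribosomal arm, none was called in ZDF rats, and Eif4e, the cap binding protein, was the 1 called, lower, with each drug (7.14% of the list each time, below the background; -0.69 ± 0.17 and -0.71 ± 0.17), with medians of -0.04 in ZDF and rosiglitazone rats and nearer to 0 with resveratrol. Among the 4 kept S6 kinases set apart, Rps6ka2 was called higher with rosiglitazone (0.50 ± 0.16), 25% of the list against 4.17% of all genes. None of them was called in ZDF or resveratrol rats against lean rats.

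Markers of blood cell types moved with the groups as well. The median over 10 B cell genes of the difference from the lean mean was -0.23 to 0.22 in lean rats, -0.90 to -0.31 in ZDF rats, -1.16 to -0.66 with rosiglitazone and -1.14 to -0.42 with resveratrol. Over 17 T cell genes it was -0.47 to 0.25, -0.57 to -0.17, -1.38 to -0.55 and -1.19 to -0.24, and over 14 neutrophil genes -0.27 to 0.50, 0.39 to 0.88, 0.36 to 2.15 and 0.31 to 1.31, in the same order. Of the B cell genes 2, 9 and 6 were called lower in the 3 obese groups and of the T cell genes 3, 14 and 6, beside 2.15%, 14.5% and 10.4% of all genes. Of the neutrophil genes 2, 7 and 4 were called higher, beside 0.8%, 4.17% and 2.73% of all genes, while Retnlg, a resistin-like gene on the same list, was called lower with rosiglitazone (-1.98 ± 0.49 (SE), limma adjusted p = 0.009) and with resveratrol (-1.54 ± 0.49, adjusted p = 0.0398).

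The median over 11 monocyte genes was -0.18 to 0.30 in lean rats, 0.37 to 0.78 in ZDF rats, 0.02 to 0.98 with rosiglitazone and -0.39 to 0.58 with resveratrol, and 4, 4 and 0 of them were called higher. These are 36.4%, 36.4% and 0% of the list, against 0.8%, 4.17% and 2.73% of all genes. Over 10 genes of NK and cytotoxic cells the median was -0.28 to 0.16, -0.57 to -0.10, -1.27 to -0.25 and -1.21 to -0.01, with 0, 3 and 2 called lower and Cst7, an inhibitor of cysteine proteases, called higher with rosiglitazone (0.80 ± 0.21 (SE)). The shares called lower than in lean rats were 0%, 30% and 20%, against 2.15%, 14.5% and 10.4% of all genes. Klrk1 on this list was also called lower for rosiglitazone against untreated ZDF (-1.07 ± 0.21 (SE), limma adjusted p = 0.0299), where 0.0471% of all genes were called lower. The 18 red cell and reticulocyte genes had medians of -0.28 to 0.19, -0.06 to 0.23, 0.14 to 0.21 and 0.09 to 0.36, none was called lower, and 0, 2 and 3 were called higher. Their shares called higher were 0%, 11.1% and 16.7%, against 0.8%, 4.17% and 2.73% of all genes. All 18 were above 0 for resveratrol against lean, with Tfrc, the transferrin receptor, at 1.20 ± 0.34 (SE). The 11 platelet genes had -0.22 to 0.12, -0.58 to -0.21, -0.88 to -0.37 and -0.30 to 0.00, and 4, 9 and 2 of them were called lower. That is 36.4%, 81.8% and 18.2%, against 2.15%, 14.5% and 10.4% of all genes. Many listed markers had no row with 1 symbol and could not be read. Such a row was found for 18 of 31 listed red cell genes, 10 of 15 B cell genes and 11 of 18 platelet genes. The part of the cell types in the lower ribosomal protein messages was not tested.

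**Figure D5:**
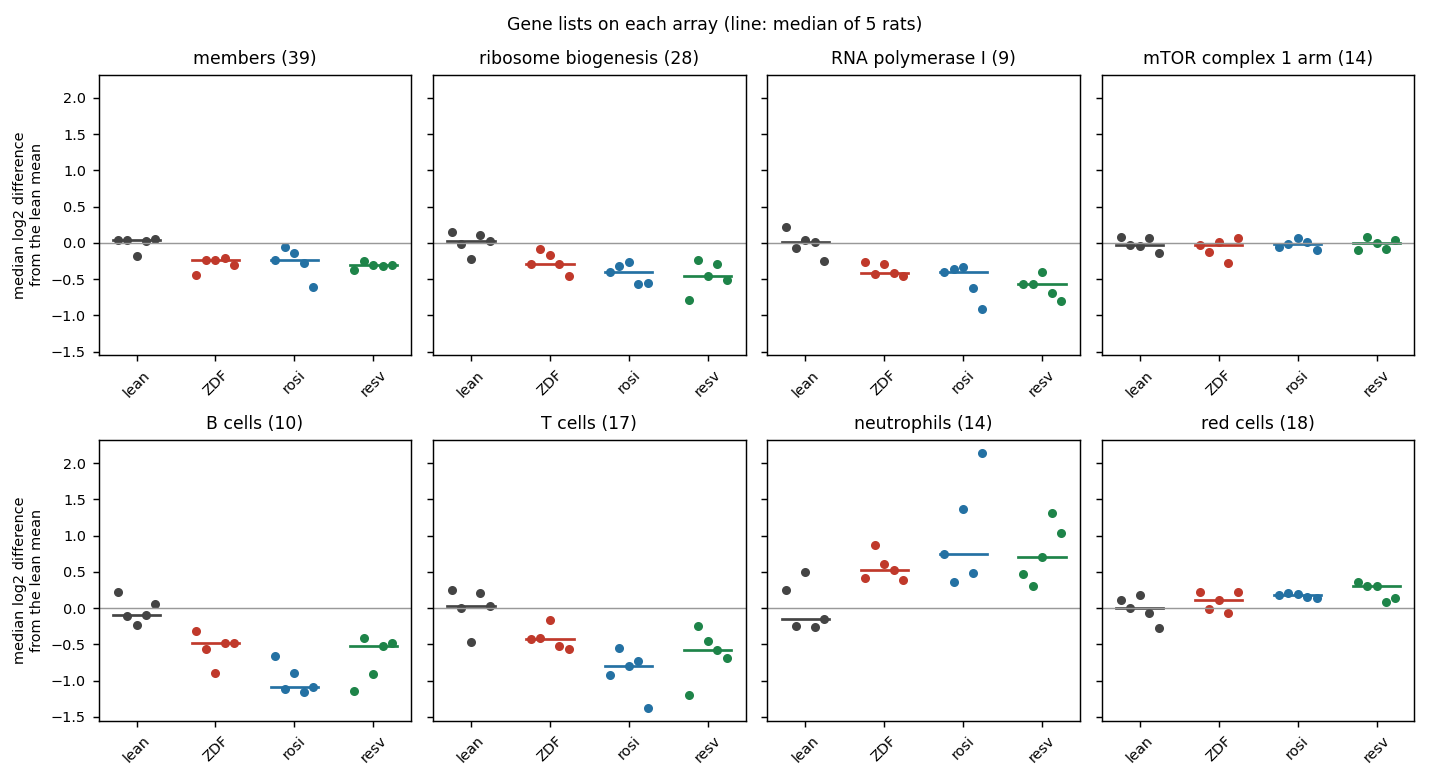
Each point is 1 rat and gives the median, over the kept genes of a list (number in parentheses), of the log2 difference from the mean of the lean rats; horizontal bars are the median of 5 rats. The B cell genes lie between -0.90 and -0.31 in the 5 ZDF rats while the ribosomal protein genes lie between -0.45 and -0.22, and the mTOR complex 1 genes between -0.27 and 0.06, with ZDF replicate 4 at -0.27.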

How the data were processed

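Whole blood RNA (100 ng per array) of 20 rats was hybridised to 1 array each, and the deposited values are log2 intensities per transcript cluster, made by the authors with RMA, which corrects the background, normalizes by quantiles and summarizes probes. The sources used here do not give the version of RMA, and 36685 rows were deposited. The platform annotation gave 1 symbol for 14824, several for 829 and none for 21032 rows, and sequences and gene identifiers came from RefSeq tables of assembly GRCr8.

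Rows with 1 symbol and a mean over the 20 arrays of at least the median of all rows (2.64) were kept, the brightest per gene, which left 8499 genes. The limma package (3.58.1, in R 4.3.3) fitted a linear model per gene with moderated variances, with n = 5 per group, on the 10 arrays of both groups for ZDF against lean and on all 20 arrays otherwise. Adjustment over the 8499 genes followed Benjamini and Hochberg, and calls were made at 0.05. As the number of arrays limits the precision, the steps were tested on simulated data of the same size, in which 16.4% of changes of 0.5 and 80.6% of changes of 1 on the log2 scale were called for ZDF against lean. The changes were placed on genes drawn from all 8499, with noise independent between genes.

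The ribosomal protein genes and all lists were chosen with earlier results of these data known, and the comparisons share arrays. Genes were named by a rule: those past the test, the 3 smallest p values of each comparison, the highest, lowest and most variable rows, and proteins with a known role. Alternatives were leaving out each rat, a replicate number block, weights for arrays, a robust prior that follows the level, averaging a gene's rows, scaling by array medians or by quantiles, no filter, and a fit on all arrays in place of 10 or the reverse. Adding rows with several symbols and leaving out 3 arrays that stand apart were chosen after the data were seen. Figures were drawn with matplotlib 3.10.9.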

Additional observations from a re-analysis of the deposited data

Results flagged for a closer look

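In 8 of 60 groups of 5 rats (the 14 genes called in at least 1 comparison and the median over the 39 genes, in each of 4 groups), 1 rat lay far from the other 4 for its group's range, where chance flags about 1 in 20 groups. The 60 groups share the same arrays and the median includes the 14 genes. They are therefore not independent, and the number flagged cannot be judged against that rate. Lean replicate 3 was low for Rpl11 (7.374, others 7.48 to 7.52), for Rpl30 (9.224, others 9.57 to 9.67) and for the median over the 39 genes (-0.1775, others 0.03 to 0.05). Rosiglitazone replicate 5 was low for Rps15a (6.059, others 7.05 to 7.34), and resveratrol replicate 1 for Rpl34 (8.969, others 9.48 to 9.62). Resveratrol replicate 3 was low for Rps15a (6.941, others 7.11 to 7.13) and resveratrol replicate 2 for Rps3a (2.704, others 3.33 to 3.57). Rosiglitazone replicate 1 was high for Rpl37a (4.218, others 3.29 to 3.53). The causes were not tested.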

How the results depend on the processing

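Under every alternative run, 0 of the 39 genes passed limma's test in the 3 comparisons between obese groups. For ZDF against lean, 6 passed with centring or array weights, 13 with the trended robust prior, 1 with all 20 arrays in the fit, 1 without the 3 arrays that stand apart and 1 to 4 without 1 rat, against 2. For rosiglitazone against lean, 13 passed with centring, 12 with the trended prior, 3 with the arrays of these groups alone, 2 without the 3 arrays and 3 to 9 without 1 rat, against 6. For resveratrol against lean, 7 passed with no filter, 4 with quantile normalization, 19 with the trended prior or with array weights, 2 without the 3 arrays and 1 to 14 without 1 rat, against 12. Over the 4 groups, 3 passed with no filter or with quantile normalization, 12 with centring, 15 with the trended prior, 11 with array weights, 1 without the 3 arrays and 1 to 7 without 1 rat, against 5. The share of all genes called in either direction moved too. For ZDF against lean it was 2.95%, and 5.35% with centring, 5.93% with array weights, 6.02% with the trended prior and 0.271% with all 20 arrays. For rosiglitazone against lean it was 18.6%, and 22.4% with centring, 19.6% with the trended prior and 15.3% with the arrays of these groups. For resveratrol against lean it was 13.2%, and 6.27% with no filter, 4.88% after quantile normalization, 14.5% with the trended prior and 18.4% with array weights. Without the 3 arrays it was 0.93%, 7.42% and 2.88%. Over the 4 groups it was 11.4%, and 2.84% to 18.4% under the alternatives named. The cause of these changes was not tested, beyond the smaller number of arrays where some were left out. No direction of a called gene turned under any alternative. Of the single genes under the alternatives, 475 values stayed on their side of the threshold, 121 lost the call and 4 gained it.

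The replicate number as a block gave 1 call for ZDF against lean (75 of all genes against 251) and changed no other count by over 1.5 times. The labels give no shared litter or day, and the deviations of same-numbered rats correlated at -0.18 to 0.27 over the 6 pairs of groups, so the numbers were not taken as pairs. Quantile normalization moved the split of all calls from 183 lower and 68 higher to 64 and 71 for ZDF against lean, and from 886 and 232 to 239 and 176 for resveratrol against lean. For rosiglitazone against lean it went from 1231 and 354 to 649 and 363, and with centring to 1708 and 198. With centring it was 403 and 52 for ZDF and 1213 and 132 for resveratrol against lean. The members' calls stayed all lower except Rps6.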
